A study of Mus musculus with 14 samples.

Results

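The transcription factor p53 and 31 genes known as its targets were followed in purified mouse hepatocytes that had lost Srsf1, which encodes an SR family splicing factor. Together they make 32 of the 54446 genes and 146 of the 137767 transcripts quantified, and they were chosen by name. All 32 symbols were found. RNA abundance was read in TPM, which gives each transcript, after correction for its length, as its part of a fixed total per library, and a gene's TPM is the sum over its transcripts. All mice were on a C57BL/6 background. At an age of 10 days (P10) or 1 month the hepatocyte knockout (HKO) group had the genotype srsf1f/f;albcre+/-, in which Cre recombinase driven by the albumin promoter removes the floxed Srsf1 alleles. Its controls were albcre+/- mice, so they carried the Cre but no floxed allele, and 2 libraries were made per group and age. The acute knockout (acHKO) group consisted of srsf1f/f mice injected at 8 weeks of age with aav-tbg-icre, a viral vector that expresses iCre from a hepatocyte promoter. Its controls were srsf1f/f mice injected with aav-tbg-gfp, and 3 libraries per group were made at 10 weeks of age, 2 weeks after injection. Loss of Srsf1 cannot be told apart from the floxed line itself in the HKO groups, or from iCre itself in the acHKO group. Whether replicates came from separate animals is not stated in the labels, so p-values measure only the spread between these libraries, which may be technical.

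In unstressed cells p53 is kept scarce by the ubiquitin ligase Mdm2, which binds it and sends it to the proteasome. DNA damage, blocked transcription or free ribosomal proteins loosen that hold, and p53 then binds response elements near its target genes and raises their transcription. The targets stop the cell cycle, repair DNA, restrain growth signalling or start cell death, and Mdm2 is itself a target, which closes a feedback loop. Stabilisation of p53 takes place at the protein, so the RNA of Trp53, the gene that encodes it, need not follow p53 activity. Several of these genes also answer to other stress factors, and Cdkn1a, Btg2 and Gdf15 are known examples.

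Promoters were examined for the p53 consensus decamer, of which a full response element holds a pair. RefSeq promoter windows of GRCm38.p6, from 250 bases before to 50 bases after an annotated start, covered 24 of the 32 genes. At least 1 match on either strand (the decamer reads the same on both) was present in 11 of these 24 genes, or 45.8%, against 9.55% of the 27025 genes with a window. A match is a description of the letters and does not show binding. The 4 windows below belong to genes described library by library, and each is shown from 250 to 11 bases before the start, 5′ to 3′ on the gene's strand, with the match in capitals.
Cdkn1a (chr17:29090729-29090968, plus strand): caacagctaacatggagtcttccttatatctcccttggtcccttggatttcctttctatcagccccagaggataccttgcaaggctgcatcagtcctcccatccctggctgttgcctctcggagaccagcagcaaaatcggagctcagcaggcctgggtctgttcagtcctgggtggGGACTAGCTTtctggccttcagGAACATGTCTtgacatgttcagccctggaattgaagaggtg
Mdm2 (chr10:117710769-117711008, minus strand): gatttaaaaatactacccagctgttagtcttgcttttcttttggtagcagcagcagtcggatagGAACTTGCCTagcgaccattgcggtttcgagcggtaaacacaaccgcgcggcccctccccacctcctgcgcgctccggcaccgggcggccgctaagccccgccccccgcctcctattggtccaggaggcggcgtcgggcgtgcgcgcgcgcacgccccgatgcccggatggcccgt
Bax (chr7:45466909-45467148, minus strand): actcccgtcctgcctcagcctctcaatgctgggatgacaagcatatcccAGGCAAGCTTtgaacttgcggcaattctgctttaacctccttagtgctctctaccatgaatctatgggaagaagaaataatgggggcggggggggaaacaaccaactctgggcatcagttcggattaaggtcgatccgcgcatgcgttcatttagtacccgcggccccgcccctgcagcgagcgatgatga
Ddit4l (chr3:137623422-137623661, plus strand): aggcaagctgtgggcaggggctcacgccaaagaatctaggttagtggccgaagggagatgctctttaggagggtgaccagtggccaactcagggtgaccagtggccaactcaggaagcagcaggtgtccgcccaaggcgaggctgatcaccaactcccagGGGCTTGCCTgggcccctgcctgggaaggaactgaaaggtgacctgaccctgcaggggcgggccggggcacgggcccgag
The Cdkn1a window holds 2 matches, GGACTAGCTT and GAACATGTCT, which begin 73 and 51 bases before the upstream of 2 annotated starts. The second of them lies 2841 bases before the downstream start, because the starts are 2790 bases apart. The match in Mdm2 begins 186 bases before its start, that in Bax 201 bases and that in Ddit4l 90 bases. The Ddit4l window lies inside the coordinates given for that gene below, which come from another annotation and begin at 137621612. Trp53, Ccng1, Aen, Ei24, Rps27l, Sesn1 and Polk are the other genes with a match.

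Srsf1 was measured as a check of the labels and had its highest knockout value below its lowest control value in each comparison. It averaged 45.0 ± 2.01 TPM (SD, n = 2) in P10 controls and 26.7 ± 4.62 TPM (SD, n = 2) in HKO, 21.6 ± 2.23 TPM (SD, n = 2) and 8.46 ± 1.01 TPM (SD, n = 2) at 1 month, and 26.2 ± 8.47 TPM (SD, n = 3) with GFP and 4.39 ± 0.849 TPM (SD, n = 3) in acHKO. The fall passed limma's test at 1 month (adjusted p = 0.00610) and in the acute model (adjusted p = 2.77e-06) but not at P10 (adjusted p = 0.0545), where it passed after TPM were rescaled between libraries (adjusted p = 0.00724). Hepatocyte markers were all present, with 15 of 15 above 0 in every library. Their summed level was 160700 to 166700 TPM in P10 controls and 101800 to 121200 TPM in P10 HKO, and fewer hepatocytes cannot be told apart from less of these RNAs per cell. P10 HKO replicate 2 stands apart from the other libraries. It held 74.7 TPM of Xist, a transcript of female cells, against at most 0.0147 TPM in every other library, and 583 TPM of the haemoglobin gene Hba-a1 against 45.6 to 95.5 TPM in the other P10 libraries. Counts of genes called at P10 are therefore given with and without it.

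Fold changes below are log2 differences of TPM + 1 between group means, given relative to the median gene of the same comparison, because TPM are shares of a total. The median gene itself moved by 0.25 at P10, by -0.001 at 1 month and by -0.36 in the acute model. Adjusted p-values come from limma with a mean-variance trend on the deposited TPM, adjusted over all tested genes, with a threshold of 0.05. They test the change before the median gene is subtracted, so where the median gene moved, a p-value does not belong to the relative fold change printed beside it. The 8 libraries of P10 and 1 month were fitted together, so an SE or p-value at 1 of these ages also holds the spread at the other. Genes averaging under 1 TPM over the libraries of a fit were not tested. Rescaling means multiplying each library by a median-ratio factor before the same test.

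At P10 the p53 network rose broadly in Srsf1 knockout hepatocytes, from the factor itself to its feedback, cell cycle, cell death and growth control targets. Of 27 tested genes 17 were higher and 0 lower (1 of the 27, Fas, was lower at an unadjusted p under 0.05), while 10.8% of all 11736 tested genes were higher and 1.87% lower. Gdf15, Cdkn1a and Phlda3 rose most. After rescaling 12 were higher and 1, Fas, was lower, against 6.65% and 6.08% of all genes. Both counts of higher genes include Pmaip1, Phlda3 and Ddit4l. These averaged under 1 TPM in controls and entered the test only through their knockout level. The heat map shows each gene in each library against its own controls.

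**Figure D1:**
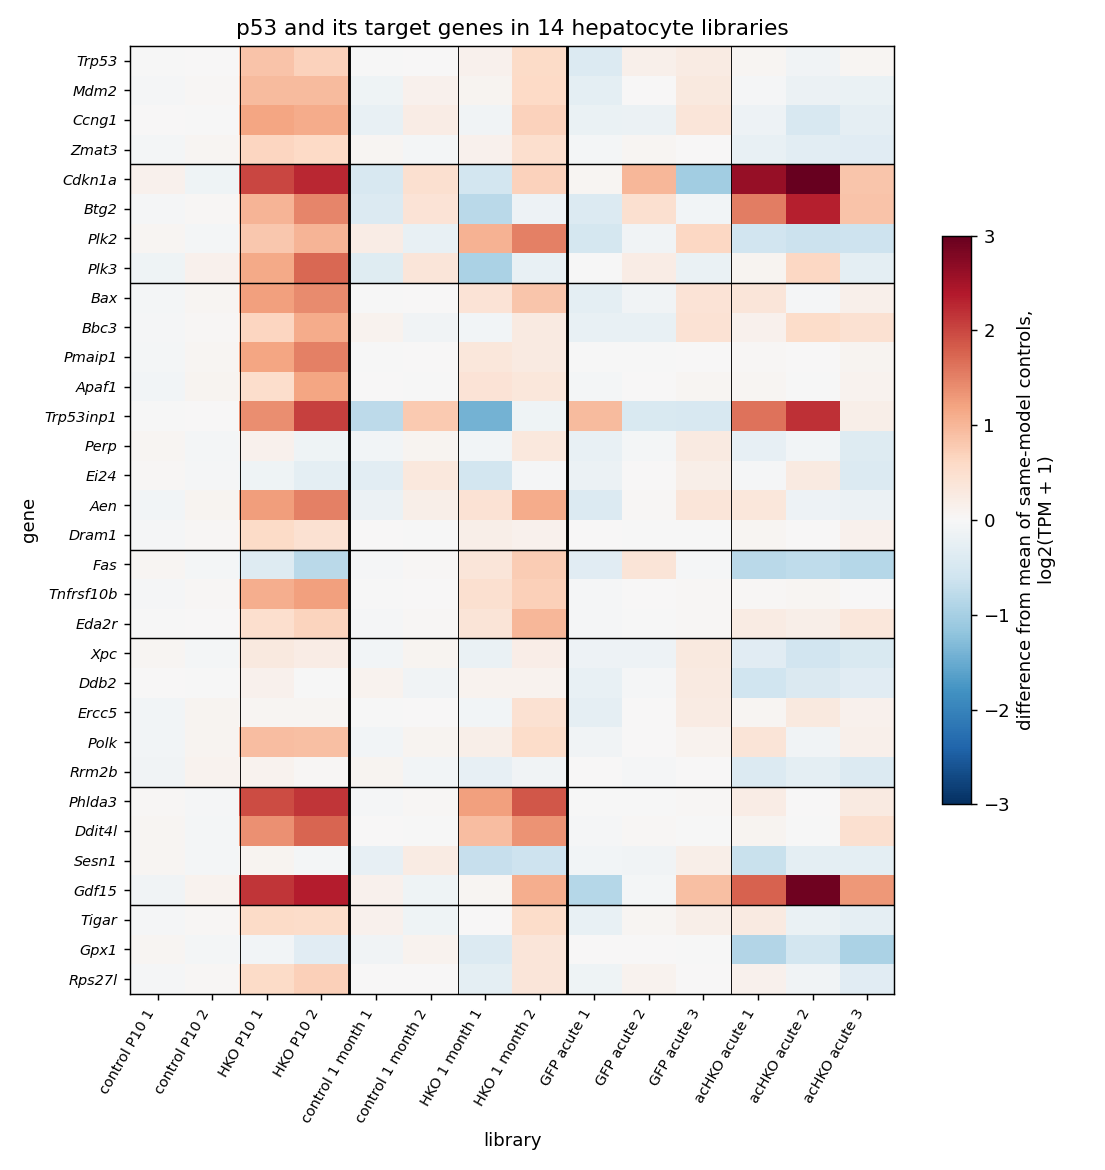
Difference of log2(TPM + 1) from the mean of the control libraries of the same age and model, for 32 genes (rows, grouped by role) in 14 libraries (columns). Red is higher, blue lower, white no difference, and values beyond 3 are drawn at the end of the scale. Both P10 HKO columns are red for most genes, while the acHKO columns are deep red for a few rows and pale blue for many others.

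The factor and its feedback partners rose together at P10. Trp53 (chr11:69580359-69591873 on GRCm38, plus strand) measured 9.69 and 9.94 TPM in controls and 18.5 and 16.4 TPM in HKO. Both knockouts lay above both controls, 1.78 times the control mean, with a relative log2 fold change of 0.52 ± 0.21 SE and adjusted p = 0.0360. Mdm2 (chr10:117688875-117710758, minus strand) measured 9.51 and 9.97 TPM in controls and 19.6 and 19.8 TPM in HKO, which is 2.02 times the control mean (0.69 ± 0.23 SE, adjusted p = 0.0218). Both knockouts were nearly equal to each other and far above both controls. Ccng1, which encodes cyclin G1, a partner of the phosphatase that acts on Mdm2, rose by 0.89 ± 0.27 SE. Zmat3, an RNA-binding zinc finger protein, was under the 1 TPM minimum, at 0.628 and 0.769 TPM in controls and 1.67 and 1.55 TPM in HKO.

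All 4 genes of cell cycle arrest rose at P10. Cdkn1a (chr17:29090976-29100727, plus strand), whose protein p21 inhibits cyclin-dependent kinases, measured 5.19 and 4.26 TPM in controls and 21.9 and 26.3 TPM in HKO. The groups did not overlap and the mean was 5.09 times that of controls (1.88 ± 0.39 SE, adjusted p = 0.00579). Btg2 (chr1:134075170-134079120, minus strand), an antiproliferative protein that binds the mRNA deadenylase, measured 33.1 and 34.4 TPM in controls and 69.4 and 95.1 TPM in HKO (0.99 ± 0.32 SE, adjusted p = 0.0305). Plk3 (chr4:117128655-117133963, minus strand), a stress-responsive polo-like kinase, measured 4.27 and 5.24 TPM in controls and 11.6 and 18.0 TPM in HKO (1.18 ± 0.33 SE, adjusted p = 0.0166). Its relative Plk2 (chr13:110395046-110400844, plus strand) went from 7.06 and 6.36 TPM to 12.6 and 14.6 TPM (0.66 ± 0.22 SE, adjusted p = 0.0237). In each of these genes both knockout libraries exceeded both controls. The rises of Btg2 and Plk2 did not pass after rescaling (adjusted p = 0.0735 and 0.0738).

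Of the 9 genes that act in mitochondrial or intracellular cell death, 8 were tested and 6 rose at P10. Bax (chr7:45461697-45466898, minus strand), which forms pores in the mitochondrial outer membrane, measured 10.6 and 11.8 TPM in controls and 27.6 and 31.7 TPM in HKO (1.08 ± 0.22 SE, adjusted p = 0.00297). Pmaip1, which encodes the death activator NOXA, measured 0.7999 and 0.967 TPM in controls and 3.25 and 4.40 TPM in HKO (1.10 ± 0.16 SE, adjusted p = 4.23e-04). Both genes were at least 2.66 times their control mean and neither overlapped with its controls. Aen (chr7:78895854-78911209, plus strand), an exonuclease that takes part in DNA fragmentation, measured 3.98 and 4.51 TPM in controls and 11.5 and 14 TPM in HKO (1.14 ± 0.25 SE, adjusted p = 0.00487). Trp53inp1 (chr4:11156431-11174379, plus strand), a nuclear protein that promotes p53 activity and autophagy, measured 6.42 and 6.54 TPM in controls and 18.5 and 29.9 TPM in HKO (1.47 ± 0.50 SE, adjusted p = 0.0467). The Trp53inp1 call was the weakest of the group, and it did not pass after rescaling (adjusted p = 0.129). Its SE also holds the spread between the 1 month libraries. Bbc3, which encodes the death activator PUMA, rose by 0.62 ± 0.21 SE, and Apaf1, the scaffold that activates caspases, by 0.60 ± 0.21 SE. Neither passed after rescaling (adjusted p = 0.0621 and 0.129). Perp and Ei24, both membrane proteins, did not pass, at -0.25 and -0.46. Dram1, a lysosomal protein of autophagy, was under the minimum at 0.684 and 0.791 TPM in controls and 1.57 and 1.39 TPM in HKO.

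Death receptors did not move as a group at P10. Fas, the receptor of Fas ligand, measured 28.1 and 26.1 TPM in controls and 20.5 and 15.1 TPM in HKO. Both knockouts lay below both controls, with a relative log2 fold change of -0.84 ± 0.23 SE that did not pass (adjusted p = 0.122) and passed after rescaling (adjusted p = 0.0109). The TRAIL receptor gene Tnfrsf10b went the other way, from 0.316 and 0.381 TPM in controls to 1.88 and 2.19 TPM in HKO, and the ectodysplasin A2 receptor gene Eda2r from 0.0966 and 0.110 TPM to 0.556 and 0.751 TPM. Both averaged under 1 TPM and were not tested. In a fit with no minimum level Tnfrsf10b was higher (adjusted p = 0.00879), as was Dram1 (adjusted p = 0.0305), and Eda2r was not called.

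Of the 4 growth control and secreted targets, 3 rose at P10. Phlda3 (chr1:135766119-135769136, plus strand), a pleckstrin homology protein that restrains Akt, measured 0.641 and 0.564 TPM in controls and 5.27 and 6.12 TPM in HKO (1.81 ± 0.20 SE, adjusted p = 9.69e-05). Ddit4l (chr3:137621612-137628333, plus strand), an inhibitor of mTOR signalling, measured 0.391 and 0.263 TPM in controls and 2.42 and 3.47 TPM in HKO (1.31 ± 0.19 SE, adjusted p = 4.23e-04). Both were nearly silent in controls and clearly above them in both knockouts. Gdf15 (chr8:70629393-70632456, minus strand), a secreted stress hormone, measured 3.37 and 4.05 TPM in controls and 19.8 and 23.0 TPM in HKO, 5.76 times the control mean (2.00 ± 0.30 SE, adjusted p = 7.26e-04). The growth inhibitor Sesn1 did not pass, at -0.23. Pmaip1, Phlda3 and Ddit4l averaged under 1 TPM in the controls and entered the test only through their knockout level, so their being called is not independent of that filter.

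Among DNA repair genes 1 passed at P10, and among metabolic targets none did. Polk, a polymerase that copies past DNA lesions, was the only repair gene that rose (0.67 ± 0.18 SE, adjusted p = 0.00742). Xpc and Ddb2, which recognise damaged DNA, and the endonuclease gene Ercc5 lay between -0.20 and 0.00 and did not pass. The ribonucleotide reductase gene Rrm2b was under the minimum, at 0.990 and 1.28 TPM in controls and 1.30 and 1.17 TPM in HKO. Tigar, a regulator of glycolysis, the glutathione peroxidase gene Gpx1 and the ribosomal protein gene Rps27l lay at 0.31, -0.46 and 0.40 and did not pass either. Their groups did not overlap, and the knockout means were 1.82 times the control mean for Tigar, 0.868 times for Gpx1 and 1.57 times for Rps27l. The authors' deposited table calls all 3, with log2 fold changes of 0.55 ± 0.17 SE for Tigar, -0.52 ± 0.13 SE for Gpx1 and 0.34 ± 0.13 SE for Rps27l.

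**Figure D2:**
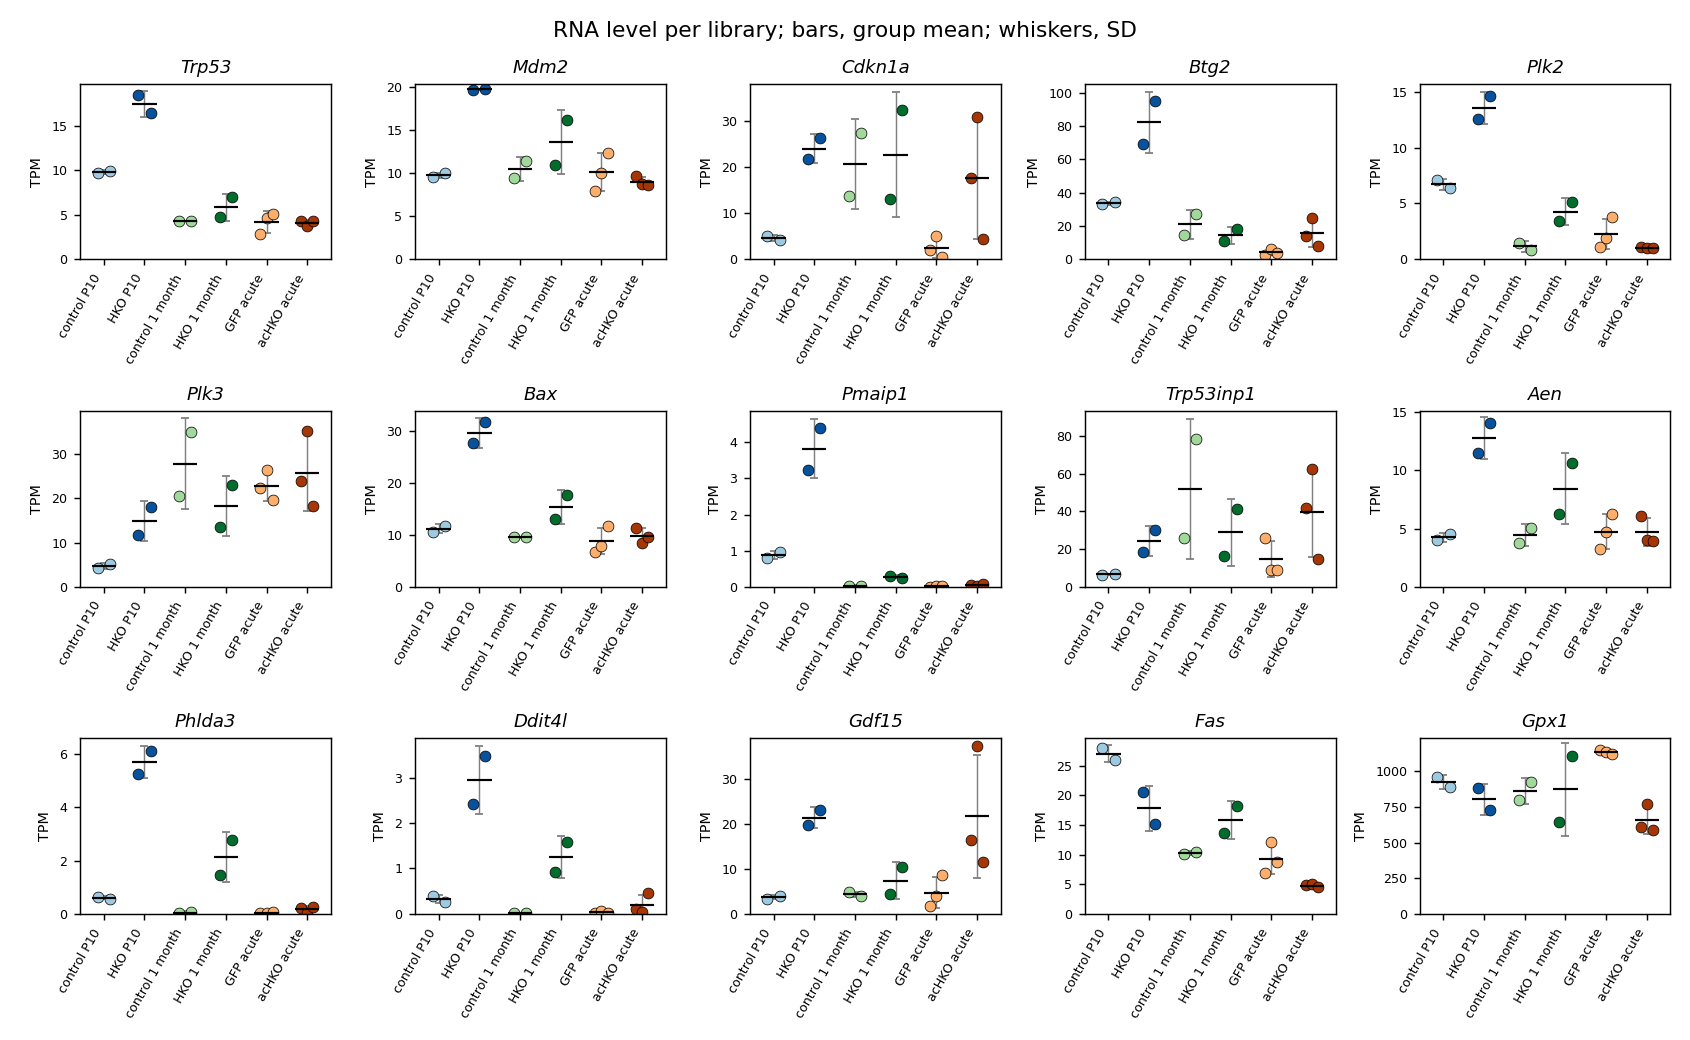
TPM per library for 15 genes in the 6 groups, one panel per gene with its own axis from 0. Points are libraries, horizontal bars group means and whiskers the SD. At P10 both HKO points lie above both controls in every panel but Fas and Gpx1. In the acute model every acHKO point lies above GFP for Btg2, Gdf15 and Pmaip1 and below it for Plk2, Fas and Gpx1, while the points overlap for Trp53 and Mdm2.

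The number of genes called at P10 depended on single libraries. The median relative change of the tested genes was 0.66 with all libraries and 0.52 without HKO replicate 2. It was 0.74 without HKO replicate 1, and 0.60 and 0.68 without control replicates 1 and 2. Without HKO replicate 2 the share of all genes called higher fell too, as given with the other lists below. Without HKO replicate 2, the library that stands apart, 6 genes passed (Cdkn1a, Bax, Aen, Polk, Phlda3 and Gdf15). Pmaip1 and Ddit4l then fell under the test's minimum level, and the other 9 had adjusted p-values of 0.0622 to 0.183. Leaving out HKO replicate 1 left 11, leaving out control replicate 1 left 7 and leaving out control replicate 2 left 9. For each of the 17 both knockouts exceeded both controls, so leaving out 1 library could not reverse a direction. In single libraries the median gene of the 32 stood 0.74 above its control mean in HKO replicate 1 and 0.93 above it in replicate 2. Every knockout value was above every control value for 20 of the 27 tested genes, but that also held for 62.6% of all tested genes. Of the markers of other cells, 2 of 14 tested macrophage markers were higher (1 after rescaling), 1 of 9 erythroid markers (0 after rescaling) and 4 of 6 cholangiocyte markers (3 higher and 1 lower after rescaling). The summed level of 15 macrophage markers was 454 to 477 TPM in controls and 542 to 789 TPM in HKO, that of 10 erythroid markers 306 to 454 TPM and 525 to 2983 TPM (the highest in HKO replicate 2), and that of 11 cholangiocyte markers 66.1 to 79.5 TPM and 143 to 175 TPM. Their part in the p53 values was not tested.

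At 1 month fewer genes passed than at P10, which is not itself a test of a difference between the ages. Plk2, Phlda3 and Ddit4l were higher in HKO, and the factor, its feedback genes, Cdkn1a and Gdf15 did not pass. At 1 month 3 of 27 tested genes were higher and 0 lower (1 of the 27, Sesn1, was lower at an unadjusted p under 0.05), against 4.87% and 1.99% of all 11736 tested genes. After rescaling 6 were higher, with Bax, Aen and Fas added, and Sesn1 was lower, against 6.88% and 7.62% of all genes.

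Phlda3 measured 0.0177 and 0.0785 TPM in controls and 1.47 and 2.79 TPM in HKO at 1 month (1.55 ± 0.20 SE, adjusted p = 8.39e-04). Ddit4l measured 0.0110 and 0.00928 TPM in controls and 0.931 and 1.57 TPM in HKO (1.14 ± 0.19 SE, adjusted p = 0.00383). Both were close to 0 in controls and entered the fit of both ages only through their level in knockout libraries, as Pmaip1 and Apaf1 did, and the fold change on this scale understates their ratio. For Phlda3 the authors' deposited table gives log2 fold changes of 5.35 ± 0.62 SE at 1 month and 2.94 ± 0.23 SE at P10. For Ddit4l it gives 6.83 ± 0.67 SE and 2.89 ± 0.33 SE. Plk2 measured 1.49 and 0.837 TPM in controls and 3.44 and 5.13 TPM in HKO, 3.68 times the control mean (1.29 ± 0.22 SE, adjusted p = 0.00533). These 3 genes passed in each of the 4 fits that left out 1 library of the comparison.

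Trp53 measured 4.28 and 4.34 TPM in 1 month controls and 4.81 and 6.95 TPM in HKO. Both knockouts were above both controls, but the relative change of 0.36 ± 0.21 SE did not pass (adjusted p = 0.417). Mdm2 measured 9.46 and 11.4 TPM in controls and 11.0 and 16.2 TPM in HKO (0.33 ± 0.23 SE, adjusted p = 0.508), with 1 knockout between the controls. Cdkn1a measured 13.8 and 27.6 TPM in controls and 13.1 and 32.4 TPM in HKO. Its groups overlapped, and each contained a low and a high library (0.08 ± 0.39 SE, adjusted p = 0.959). Trp53inp1 showed the same split, with 25.6 and 78.4 TPM in controls and 16.3 and 41.3 TPM in HKO (-0.76 ± 0.50 SE, adjusted p = 0.481). Btg2 measured 14.8 and 27.3 TPM and 11.0 and 18.0 TPM, and Plk3 20.6 and 35.1 TPM and 13.5 and 23.1 TPM, both with overlapping groups. Control replicate 2 exceeded control replicate 1 in each of these 4 stress-responsive genes, and HKO replicate 2 exceeded HKO replicate 1.

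Bax measured 9.48 and 9.53 TPM in 1 month controls and 13 and 17.6 TPM in HKO (0.62 ± 0.22 SE, adjusted p = 0.138). Aen measured 3.76 and 5.08 TPM and 6.27 and 10.6 TPM (0.77 ± 0.25 SE, adjusted p = 0.103). In both genes the groups did not overlap, and both passed after rescaling (adjusted p = 0.0252 and 0.0382). Gdf15 measured 4.75 and 3.87 TPM and 4.48 and 10.3 TPM, so that only HKO replicate 2 was above the controls. Pmaip1 was almost silent at this age, with 0.0123 and 0.0297 TPM in controls and 0.302 and 0.240 TPM in HKO (0.32 ± 0.16 SE, adjusted p = 0.338). Fas measured 10.1 and 10.5 TPM and 13.6 and 18.2 TPM, and Sesn1 2.75 and 4.22 TPM and 1.73 and 1.90 TPM. Fas was above its controls in both knockouts and Sesn1 below them in both (0.57 ± 0.23 SE and -0.65 ± 0.20 SE), and both passed only after rescaling (adjusted p = 0.0495 and 0.0280). The remaining 12 tested genes lay between -0.28 (Ei24) and 0.38 (Apaf1), and none of them passed with or without rescaling.

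Both knockout libraries lay above both controls for 10 of the 27 tested genes and below them for 1, against 21.1% and 15.6% of all tested genes. The 2 HKO libraries of 1 month differed from each other in the network as a whole. The median of the 32 genes stood 0.06 above the control mean in HKO replicate 1, with 18 genes above it, and 0.48 in replicate 2, with 26 genes above it. The median relative change of the tested genes was 0.28 with all libraries, 0.24 without HKO replicate 1 and 0.17 without HKO replicate 2. Macrophage markers summed to 19.5 to 24.3 TPM in controls and 62.7 to 167 TPM in HKO, and 10 of 14 tested were higher (4 after rescaling). Their part in the p53 values was not tested.

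In the acute model a small set of genes rose steeply while the core of the network did not pass. Gdf15, Cdkn1a, Btg2 and Trp53inp1 were higher in acHKO, and Fas and Gpx1 were lower. Trp53 and Mdm2 did not pass. In all 4 of 22 tested genes were higher and 2 lower, against 5.93% and 34.8% of all 9963 tested genes. After rescaling 6 were higher (Cdkn1a, Btg2, Bax, Bbc3, Ercc5 and Gdf15) and only Fas was lower, against 13.9% and 27.6% of all genes.

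Trp53 measured 2.84, 4.70 and 5.08 TPM under GFP and 4.29, 3.73 and 4.34 TPM in acHKO, with overlapping groups (0.36 ± 0.21 SE). Before the median gene is subtracted its change was 0.001 (adjusted p = 0.997). Mdm2 measured 7.94, 10.1 and 12.3 TPM and 9.67, 8.69 and 8.59 TPM (0.23 ± 0.20 SE, and -0.14 before subtraction, adjusted p = 0.602). Both means were within 1 SD of the GFP libraries. Their positive relative values arise because the median gene fell, since the ratio of means was 0.979 for Trp53 and 0.889 for Mdm2.

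Cdkn1a measured 2.16, 5.02 and 0.477 TPM under GFP and 17.7, 31.0 and 4.43 TPM in acHKO (2.65 ± 0.49 SE, adjusted p = 0.00187). The lowest knockout library, replicate 3, lay below the highest GFP library, replicate 2. Without GFP replicate 3, which held the lowest value, the change was 2.01 and no longer passed (adjusted p = 0.0773). Btg2 measured 2.87, 6.22 and 3.85 TPM and 14, 24.8 and 8.26 TPM (1.94 ± 0.30 SE, adjusted p = 7.81e-04), and Gdf15 measured 1.80, 3.86 and 8.52 TPM and 16.3, 37.3 and 11.5 TPM (2.36 ± 0.38 SE, adjusted p = 7.54e-04). In both genes every knockout exceeded every GFP library, and both passed without any 1 of the 6 libraries. Trp53inp1 measured 25.7, 9.10 and 9.05 TPM and 41.8, 62.4 and 14.8 TPM (1.69 ± 0.41 SE, adjusted p = 0.0158). Its groups overlapped, and it passed neither after rescaling (adjusted p = 0.0920) nor without GFP replicate 3 (adjusted p = 0.193). Among the acHKO libraries, replicate 2 was the highest and replicate 3 the lowest in each of these 4 genes.

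Fas measured 6.95, 12.2 and 8.80 TPM under GFP and 4.79, 4.97 and 4.59 TPM in acHKO, and every knockout lay below every GFP library. Its log2 change was -0.80 before the median gene is subtracted (adjusted p = 0.00706) and -0.44 ± 0.21 SE relative to it, and without GFP replicate 2 the adjusted p was 0.0812. Gpx1 (chr9:108338903-108340343, plus strand), the abundant glutathione peroxidase of liver, measured 1146, 1135 and 1122 TPM and 612, 773 and 590.0 TPM. Every knockout lay below every GFP library, with a log2 change of -0.80 before subtraction (adjusted p = 0.00805) and of -0.43 ± 0.21 SE relative to the median gene. It did not pass after rescaling (adjusted p = 0.108). Bax measured 6.74, 7.92 and 11.6 TPM and 11.4, 8.38 and 9.65 TPM with overlapping groups, Aen 3.23, 4.69 and 6.23 TPM and 6.06, 4.01 and 3.95 TPM, and Plk3 22.3, 26.5 and 19.7 TPM and 23.9, 35.2 and 18.2 TPM. Plk2 measured 1.16, 1.90 and 3.76 TPM under GFP and 1.08, 0.997 and 1.02 TPM in acHKO, which put every knockout below every GFP library (-0.25 ± 0.24 SE, adjusted p = 0.0536). Of the 4 genes Bax, Aen, Plk3 and Plk2 none passed, and after rescaling only Bax did (adjusted p = 0.0206).

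Of the other 10 tested genes none passed on the deposited TPM, with relative changes from -0.10 (Xpc) to 0.74 (Bbc3), and Bbc3 and Ercc5 passed after rescaling (adjusted p = 0.0358 and 0.0167). All 3 knockouts lay above all 3 GFP libraries for 2 of the 22 tested genes and below them for 5, against 6.61% and 47.1% of all tested genes.

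Phlda3 and Ddit4l, which rose at both earlier ages, were barely detected in adult hepatocytes. Phlda3 measured 0.0315, 0.0328 and 0.0678 TPM under GFP and 0.216, 0.0473 and 0.249 TPM in acHKO. Ddit4l measured 0.0116, 0.0704 and 0.0285 TPM and 0.0966, 0.0327 and 0.453 TPM, and Pmaip1 0.00399, 0.00852 and 0.0136 TPM and 0.0414, 0.0181 and 0.0622 TPM. These 3 were among 10 genes under the minimum and were not tested, with Zmat3, Apaf1, Dram1, Tnfrsf10b, Eda2r, Ddb2 and Rrm2b. Among the 10, all 3 knockout values lay above all 3 GFP values for Pmaip1, Dram1 and Eda2r and below them for Zmat3, Ddb2 and Rrm2b. Eda2r, for example, measured 0.0616, 0.0761 and 0.110 TPM under GFP and 0.277, 0.219 and 0.376 TPM in acHKO. The median of the 32 genes stood 0.05 above the GFP mean in acHKO replicate 1 and 0.05 and 0.08 below it in replicates 2 and 3 (log2 of TPM + 1, not relative to the median gene). Macrophage markers summed to 9.47 to 21.6 TPM under GFP and 13.9 to 61.7 TPM in acHKO, with 6 of 8 tested higher (1 after rescaling), and their part in these values was not tested.

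**Figure D3:**
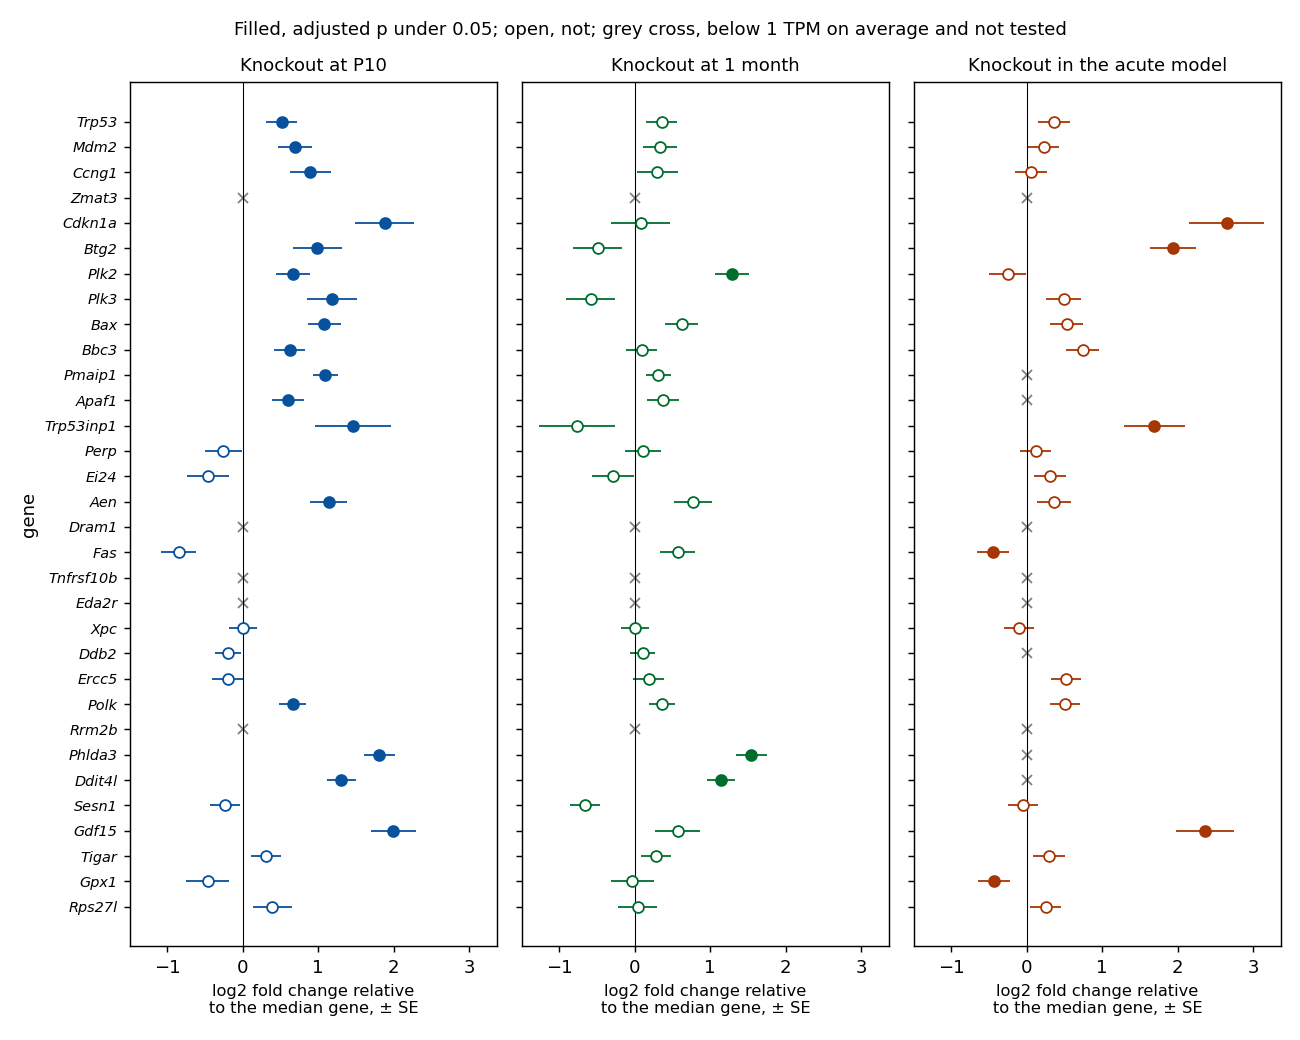
Log2 fold change of TPM + 1 relative to the median gene (x axis, bars are SE) for 32 genes in the 3 knockout comparisons. Filled points have an adjusted p under 0.05, open points do not, and a grey cross at 0 marks a gene that was not tested and carries no value. Filled points run through most roles at P10, are limited to Plk2, Phlda3 and Ddit4l at 1 month, and in the acute model stand at Cdkn1a, Btg2, Trp53inp1 and Gdf15 on the right and at Fas and Gpx1 on the left.

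Differences between the knockout effects were tested directly. The effect at 1 month was lower than at P10 for Plk3, by 1.76 ± 0.46 (SE, adjusted p = 0.0431), where it went from 1.18 to -0.58. It was also lower for Pmaip1, by 0.78 ± 0.23 (SE, adjusted p = 0.0381). Both differences are on the log2(TPM + 1) scale relative to the median gene. For Pmaip1 the direction rests on that scale. Its knockout mean was 12.9 times the control mean at 1 month, at levels of at most 0.302 TPM, and 4.33 times at P10, and the authors' deposited table gives log2 fold changes of 3.65 ± 0.77 SE and 1.81 ± 0.24 SE. With a pseudocount of 0.1 TPM its difference was -0.10 and did not pass (adjusted p = 0.751). The calls make 2 of 27 tested genes lower and 0 higher (1 of the 27, Fas, was higher at an unadjusted p under 0.05), against 1.8% and 1.01% of all genes. Neither passed after rescaling (adjusted p = 0.0610 and 0.153). Fas alone then passed (adjusted p = 0.0139), against 2.26% of all genes higher and 2.25% lower. The rescaled relative change of Fas was -0.86 at P10 and 0.57 at 1 month, so its sign changed. For Cdkn1a, Btg2 and Gdf15 the differences of -1.80 ± 0.56 SE, -1.48 ± 0.46 SE and -1.42 ± 0.42 SE did not pass (adjusted p = 0.0862, 0.0783 and 0.0638). Trp53inp1 did not pass either, with the largest difference, -2.23 ± 0.71 SE (adjusted p = 0.104). With replicate number added to the fit as a block, each of these genes was called lower, but the labels do not say whether the numbers pair libraries. The call for Plk3 did not pass without control replicate 1 or 2 or HKO replicate 2 of P10, or without control replicate 2 or HKO replicate 1 of 1 month (adjusted p = 0.056 to 0.153). That for Pmaip1 did not pass without either P10 control, either 1 month control or 1 month HKO replicate 1 (adjusted p = 0.0594 to 0.15). Without either P10 HKO library Pmaip1 fell under the minimum level, so it passed in 1 of the 8 fits, that without 1 month HKO replicate 2. Over all 8 libraries left out in turn, the count of lower genes ran from 0 to 11, and the 11 appeared without 1 month HKO replicate 2.

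The acute effect exceeded the 1 month effect for Btg2, by 2.39 ± 0.54 SE (adjusted p = 0.0353). It was lower for Plk2 (-1.57 ± 0.37 SE, adjusted p = 0.00756), for Fas (-1.04 ± 0.31 SE, adjusted p = 0.0159) and for Phlda3 (-1.05 ± 0.23 SE, adjusted p = 0.00252). All 4 differences also passed after rescaling, when 6.82% of all genes were higher and 6.77% lower. They make 1 of 25 tested genes higher and 3 lower, against 1.01% and 5.82% of all 11219 tested genes. Fas lay above its controls in both HKO libraries of 1 month and below its controls in all 3 acHKO libraries. Phlda3 entered this fit only through its level in HKO libraries, so its call is not independent of that filter. At its acute levels of at most 0.249 TPM, log2(TPM + 1) shrinks any change. The authors' deposited table gives Phlda3 log2 fold changes of 5.35 ± 0.62 SE at 1 month and 2.32 ± 0.68 SE in the acute model. Leaving out 1 of 7 of the 10 libraries ended the call for Btg2 (adjusted p = 0.0524 to 0.117), leaving out 1 month HKO replicate 2 ended those for Plk2 and Fas (adjusted p = 0.0552 and 0.0766), and leaving out 1 month control replicate 1 ended that for Fas (adjusted p = 0.0627).

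Set against P10, the acute effect was lower for 10 of 25 tested genes and higher for 0 (0 of the 25 were higher at an unadjusted p under 0.05), while 31.8% of all genes were lower and 2.07% higher. After rescaling 6 were lower (Mdm2, Ccng1, Plk2, Bax, Aen and Phlda3) and 1, Ercc5, was higher, against 11.9% and 7.73%. The differences of these 6 ran from -0.51 for Mdm2 to -1.32 for Phlda3. The size for Phlda3 rests on the log2(TPM + 1) scale, because its acute values were at most 0.249 TPM. It entered this fit only through its level in HKO libraries. The authors' deposited table gives it log2 fold changes of 2.94 ± 0.23 SE at P10 and 2.32 ± 0.68 SE in the acute model. Among the other 4, Apaf1, Polk and Xpc differed by -0.80, -0.77 and -0.71 before the median gene, itself at -0.58, is subtracted, and by less than 1 SE relative to it. Cdkn1a, Btg2 and Gdf15 did not differ detectably between the acute and P10 effects (0.73 ± 0.91 SE, 0.91 ± 0.54 SE and 0.33 ± 0.67 SE), and these wide errors do not show that the effects were alike. Without P10 control replicate 1 or P10 HKO replicate 2 the count of lower genes was 3, and without the other library of either P10 group it was 5. Ages, vectors and control genotypes differ between the models, and their part cannot be told apart.

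The level from which each knockout started differed between the ages, as did the RNA of other cells. Macrophage markers summed to 454 to 477 TPM in P10 controls and 19.5 to 24.3 TPM in 1 month controls. Stellate markers summed to 125.5 to 139.6 TPM and 5.36 to 5.79 TPM, and neutrophil markers to 172 to 240 TPM and 0.575 to 0.578 TPM. Their part in the differences with age was not tested. In controls, 4 of 27 tested genes were higher at 1 month than at P10 and 7 lower, against 6.08% and 38.2% of all genes. Cdkn1a, Plk3, Trp53inp1 and Ei24 were higher, by 2.28 ± 0.39 SE, 2.71 ± 0.33 SE, 3.05 ± 0.50 SE and 1.23 ± 0.28 SE relative to the median gene, which fell by 0.43. Cdkn1a stood at 5.19 and 4.26 TPM in P10 controls and 13.8 and 27.6 TPM in 1 month controls, a level that overlaps with the 21.9 and 26.3 TPM of P10 knockouts. Trp53 fell with age, from 9.69 and 9.94 TPM to 4.28 and 4.34 TPM (-0.60 ± 0.21 SE, adjusted p = 0.00234). Plk2, Pmaip1, Apaf1, Fas, Ddb2 and Phlda3 also fell, before the median gene is subtracted. Rescaling left 6 of these 7 lower, without Ddb2, against 20.4% of all genes, and brought the number higher to 14, against 25.5% of all genes, with Mdm2, Ccng1, Bax, Bbc3, Perp, Aen, Xpc, Tigar, Gpx1 and Rps27l added. Phlda3 averaged 0.602 TPM in P10 controls and 0.0481 TPM in 1 month controls, and Pmaip1 0.884 and 0.0210 TPM. Both genes entered this fit only through their level in HKO libraries. Phlda3 did not pass without any 1 of the 4 control libraries. Ddb2 did not pass without either P10 control or without 1 month control replicate 2. The Ei24 rise did not pass without either P10 control or without 1 month control replicate 2 (adjusted p = 0.142 to 0.266).

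Per length, Gpx1 was the most abundant of the 32 genes, with group means of 658 to 1134 TPM, and Rps27l followed with 197 to 334 TPM, without overlap between their ranges. Ei24 and Perp lay in every group between 29.9 TPM for Perp in acHKO and 104 TPM for Ei24 in 1 month controls. Btg2 ran from 4.31 TPM with GFP to 82.2 TPM in P10 HKO. Dram1 had the lowest group mean, 0.00647 TPM with GFP, close to that of Pmaip1 in the same group (0.00870 TPM). TPM carry no depth, but the authors' deposited table gives mean normalised counts of 13.5 for Dram1 and 9.52 for Pmaip1 over the acute libraries.

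Transcript usage, the share of a gene's TPM that each of its transcripts holds, was tested with limma's diffSplice. At P10 and at 1 month 0 of 8 tested genes of the network changed usage (at each age 1 of the 8 had an unadjusted p under 0.05, Bax at P10 and Fas at 1 month), against 0.586% and 0.234% of all 4265 tested genes. In the acute model 3 of 7 did, against 35.5% of all 3415 tested genes, which is close to the background. The processed transcript of Plk3, which has no annotated coding frame, held 7.66, 14.8 and 6.94% of Plk3 with GFP and 22.6, 25.2 and 30.0% in acHKO (adjusted p = 0.0164). The shortest of the 3 tested coding transcripts of Gpx1 (653 bases) held 12.8, 9.63 and 4.37% with GFP and 21.7, 21.5 and 24.8% in acHKO (adjusted p = 0.00184). A retained intron transcript of Mdm2 (919 bases) held 7.11, 16.2 and 13% with GFP and 22.3, 24.3 and 21% in acHKO (adjusted p = 0.0477). In all 3 the acHKO libraries lay above the GFP libraries without overlap, while the total TPM of Plk3 and of Mdm2 did not pass. Gpx1 alone passed without GFP replicate 1 or without GFP replicate 3, and Gpx1 and Plk3 passed without any 1 of the other 4 libraries, so Mdm2 passed in none of these fits.

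The shorter coding transcript of Fas (555 bases) held 23.4, 14.4 and 28.3% with GFP and 5.51, 5.41 and 5.30% in acHKO, a fall that did not pass (adjusted p = 0.0753). The same transcript held 18.1 and 22.5% in 1 month controls and 8.14 and 8.53% in HKO (adjusted p = 0.223). In both comparisons the groups did not overlap. The main coding transcripts of Trp53 differ by 1 base in length (1772 and 1771 bases), and the estimated share of the shorter one jumped between libraries of 1 group, from 58.8% in GFP replicate 1 to near 0 in replicates 2 and 3. Shares within Trp53 are therefore uncertain, and only its sum is used.

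**Figure D4:**
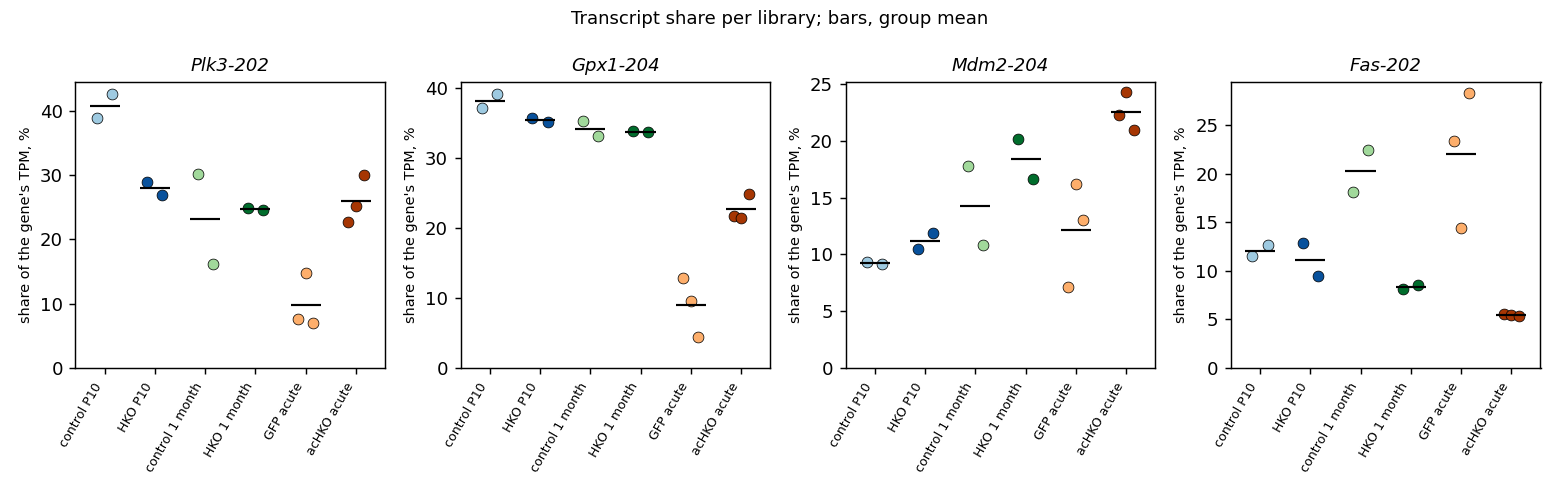
Share of the gene's TPM, in percent, held by the Plk3, Gpx1, Mdm2 and Fas transcripts described above in each library of the 6 groups (points, with group means as bars). In the acute model acHKO lies above GFP for Plk3, Gpx1 and Mdm2 and below it for Fas. The GFP libraries hold the lowest Gpx1 shares of the 6 groups.

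Other genes of the pathway gave the following counts, adjusted over all tested genes. They are to be read against the shares of all genes called: 10.8% higher and 1.87% lower at P10, 4.87% and 1.99% at 1 month, and 5.93% and 34.8% in the acute model. After rescaling these shares were 6.65% and 6.08%, 6.88% and 7.62%, and 13.9% and 27.6%. Counts at P10 without HKO replicate 2 are given with them, when 5.17% of all 11535 tested genes were higher and 0.91% lower. Among 32 regulators of p53, 2 of 27 tested rose at P10, Rpl5 and Ppp1r13b (0.93 ± 0.23 and 0.45 ± 0.20 SE). Rpl5 encodes a ribosomal protein that can bind Mdm2, and Ppp1r13b encodes a cofactor of p53, and 1 regulator was higher after rescaling and 0 without HKO replicate 2. At 1 month 0 of 27 changed (3 lower after rescaling), and in the acute model 10 of 25 were lower and 0 higher (10 and 2 after rescaling), a share near the 34.8% of all genes. Cop1, a ubiquitin ligase of p53, fell in the acute model from 28.4 ± 3.66 TPM with GFP to 9.92 ± 1.03 TPM (SD, n = 3; adjusted p = 3.91e-05). Among 36 further targets, 8 of 29 rose at P10 (5 of 29 without HKO replicate 2) and 0 fell, among them Psrc1 and Ier5 (1.32 ± 0.21 and 1.38 ± 0.22 SE). At 1 month Ckap2 and Psrc1 rose and Cdip1 fell, out of 29 tested. In the acute model 5 of 24 rose and 1 fell, led by Ddit4, the relative of Ddit4l, which went from 2.22 ± 0.251 TPM to 39.9 ± 21.3 TPM (SD, n = 3; adjusted p = 6.18e-07). After rescaling the further targets numbered 6 higher and 2 lower at P10, 4 and 2 at 1 month, and 8 and 1 in the acute model.

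Cell cycle genes that p53 is known to lower through p21 were higher, not lower, where they passed. At P10 11 of 25 tested were higher (3 after rescaling, and 1 of 24 without HKO replicate 2), among them Kif23, Plk1 and Aurka, mitotic genes with relative changes of 0.57 to 0.62. At 1 month 22 of 25 were higher (22 after rescaling), with Ccnb2 (0.365 ± 0.0801 TPM in controls, 8.52 ± 0.594 TPM in HKO, SD, n = 2), Kif20a and Cdc20 in front. None was lower at either age, and in the acute model only 2 of the 26 were high enough to test, with 0 changed. Their summed level was 272 to 290 TPM in P10 controls, 8.15 to 12.2 TPM in 1 month controls and 76.2 to 94.8 TPM in 1 month HKO.

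Other stress programmes share some targets with p53 and were counted in the same way. Of the ATF4 and CHOP targets of amino acid and endoplasmic reticulum stress, 10 of 14 tested rose at P10, 2 of 14 at 1 month and 2 of 11 in the acute model, where Ddit3, a symbol on 2 gene identifiers, fell (10, 3 and 4 higher after rescaling, and 7 of 13 at P10 without HKO replicate 2). Trib3 rose in all 3 comparisons (3.27 ± 0.27, 1.10 ± 0.27 and 1.55 ± 0.25 SE). NRF2 targets of oxidative stress rose in 12 of 14, 7 of 14 and 5 of 12 (11, 8 and 7 after rescaling, and 11 of 14 at P10 without HKO replicate 2), among them Gstm3 at P10 (4.0 ± 0.4 TPM in controls, 126 ± 31.3 TPM in HKO, SD, n = 2). Immediate early genes rose in 6 of 15 at P10 (Atf3, Ier3 and Klf6 in front; 5 after rescaling and 4 of 15 without HKO replicate 2), rose in 3 and fell in 1 of 15 at 1 month, and rose in 2 and fell in 3 of 9 in the acute model (after rescaling 3 and 2 at 1 month, and 3 and 2 in the acute model). How much of the p53 target values belongs to these programmes was not tested. Hepatocyte markers fell in 5, 4 and 5 of 15, of which the acute share is near that of all genes. After rescaling 10, 7 and 3 were lower and 1 higher in the acute model, and without HKO replicate 2 the P10 count was 2. Of the other cell type lists, endothelial markers rose in 0 of 10, 1 of 10 and 0 of 6, stellate markers in 3 of 8, 2 of 8 and 1 of 1, cholangiocyte markers in 4 of 6, 2 of 6 and 0 of 2, and erythroid markers in 1 of 9, 0 of 9 and 0 of 2 with 1 lower. Without HKO replicate 2 the P10 counts were 3 of 14 macrophage, 2 of 8 stellate, 3 of 6 cholangiocyte and 0 of 7 erythroid markers higher. No neutrophil marker passed in the 6 tested (1 of 4 was lower at P10 without HKO replicate 2), and no marker of T, NK and B cells was high enough to test.

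The authors' deposited table of P10 counted 23 of the 32 genes higher and 3 lower (Ei24, Fas and Gpx1) at an adjusted p under 0.05, against 13.4% and 11.8% of the genes it tested. It included low genes that the 1 TPM minimum left out of the main test here. In the authors' deposited table the log2 fold changes were 2.23 ± 0.24 SE for Tnfrsf10b, 2.35 ± 0.39 SE for Eda2r and 0.89 ± 0.17 SE for Zmat3. For 1 month the authors' deposited table had 8 higher (Plk2, Pmaip1, Apaf1, Aen, Tnfrsf10b, Eda2r, Phlda3 and Ddit4l) and 1 lower (Sesn1), against 8.97% and 4.53%. For the acute model the authors' deposited table had 12 higher and 3 lower (Plk2, Fas and Ddb2), against 16.4% and 16.1%. Besides Cdkn1a, Btg2 and Gdf15, the 12 in the authors' deposited table hold Bax, Bbc3, Pmaip1, Dram1, Eda2r, Ercc5, Polk, Phlda3 and Ddit4l. The authors' deposited table gave Trp53 0.52 ± 0.13 SE at P10, 0.35 ± 0.24 SE at 1 month and 0.30 ± 0.18 SE in the acute model, of which only the P10 value passed. Pmaip1, Eda2r, Phlda3 and Ddit4l were the 4 genes higher in all 3 comparisons of the authors' deposited table.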

How the data were processed

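RNA from purified hepatocytes of 14 libraries was read as transcript TPM, which the authors computed with kallisto 0.46.0 after bcl2fastq 2.17.1.14, on mouse GRCm38 (mm10), per the submitters' processing notes. The deposited TPM columns sum to 999999.6 to 1000000.24 each, so TPM carry no read depth and no counting error can be computed from them. The authors' deposited tables of their own comparisons hold a mean normalised count, which is a signal scaled between libraries, log2 fold changes and their errors, a score (the test statistic), and p-values. DESeq2 is named in the submitters' processing notes without a version.

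TPM of transcripts were summed per gene. Groups were compared with limma 3.58.1 (R 4.3.3), with a mean-variance trend, on log2(TPM + 1), for genes averaging at least 1 TPM over the libraries of a fit, with Benjamini-Hochberg adjustment over all genes. These p-values test the change before the median gene of the comparison is subtracted. The 8 libraries of P10 and 1 month were fitted together (4 residual degrees of freedom), the 6 acute libraries separately (4), and differences between models with all 14 (8). Transcript shares were tested with diffSplice for transcripts of at least 1 TPM and 5% of the gene, and called at a change of at least 10 points. The procedures were tested on simulated data. The alternatives were median-ratio rescaling, a pseudocount of 0.1 TPM, no minimum level, all libraries in 1 fit, a replicate block, and leaving out each library. The 32 genes and the other lists were chosen with earlier results of these data known. Per-library values are given for Trp53, Mdm2, Cdkn1a and genes that passed with an absolute relative log2 change of at least 1, and for further genes chosen after their values were seen. From each other list up to 3 genes that passed with the smallest p were named per comparison. Of the genes this rule selects, 1 is not reported here. Coordinates come from GENCODE M21, matched by identifier for 53229 of 54446 genes, and promoters from RefSeq.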

Additional observations from a re-analysis of the deposited data

Results flagged for a closer look

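For 16 of the genes and comparisons, the direct test of a difference between 2 knockout effects gave an adjusted p under 0.05 in limma. Values are log2 differences of TPM + 1 relative to the median gene of the same test, while the p-values test the differences before that gene is subtracted. None of them carries an explanation here.

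Between P10 and 1 month, the knockout effect was lower at 1 month for Pmaip1 (-0.78 ± 0.23 SE, adjusted p = 0.0381) and Plk3 (-1.76 ± 0.46 SE, adjusted p = 0.0431). Neither passed after rescaling. For Pmaip1 the direction rests on the log2(TPM + 1) scale, since its knockout mean was 12.9 times the control mean at 1 month and 4.33 times at P10. The authors' deposited table gives log2 fold changes of 3.65 and 1.81, and with a pseudocount of 0.1 TPM the difference was -0.10 (adjusted p = 0.751). Between 1 month and the acute model, the acute effect was higher for Btg2 (2.39 ± 0.54 SE, adjusted p = 0.0353). It was lower for Plk2 (-1.57 ± 0.37 SE, adjusted p = 0.00756), Fas (-1.04 ± 0.31 SE, adjusted p = 0.0159) and Phlda3 (-1.05 ± 0.23 SE, adjusted p = 0.00252). All 4 passed after rescaling. Phlda3 entered this fit only through its level in HKO libraries, and at its acute levels of at most 0.249 TPM log2(TPM + 1) shrinks any change. For Phlda3 the authors' deposited table gives log2 fold changes of 5.35 ± 0.62 SE at 1 month and 2.32 ± 0.68 SE in the acute model.

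Between P10 and the acute model, the acute effect was lower for 10 genes. Those that also passed after rescaling were Phlda3 (-1.32), Plk2 (-0.95), Ccng1 (-0.88), Aen (-0.81), Bax (-0.59) and Mdm2 (-0.51). Those that did not were Plk3 (-0.73), Apaf1 (-0.22), Polk (-0.20) and Xpc (-0.14). The last 3 are smaller than their SE, and their calls belong to differences of -0.80, -0.77 and -0.71 before the median gene, itself at -0.58, is subtracted. The same limits of filter and scale hold for Phlda3 here. For Phlda3 the authors' deposited table gives log2 fold changes of 2.94 ± 0.23 SE at P10 and 2.32 ± 0.68 SE in the acute model. Ages, vectors and control genotypes differ along with these comparisons and cannot be told apart.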

How the results depend on the processing

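Each call for a single gene of the network was set against each alternative, and of these pairs 443 kept the call, 145 lost it and 0 reversed in direction. Counts of genes called moved by over 1.5 times as follows, and except where fewer genes or libraries were tested the cause was not tested. Median-ratio rescaling gave 1 lower at P10 (0 on the deposited TPM), 6 higher and 1 lower at 1 month (3 and 0), 1 lower in the acute model (2), 1 higher and 0 lower for 1 month against P10 (0 and 2), 1 higher and 6 lower for acute against P10 (0 and 10), and 14 higher with age in controls (4). With no minimum level, 10 were higher at P10 (17), 1 in the acute model (4) and 1 at 1 month (3), 1 was lower in the acute model (2), 0 were lower for 1 month against P10 (2) and 0 higher for acute against 1 month (1). A fit of all 14 libraries gave 11 higher at P10 (17) and 4 lower in the acute model (2). A pseudocount of 0.1 TPM gave 1 lower for 1 month against P10 (2).

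Leaving out each library in turn gave 6 to 11 higher at P10, 3 to 6 higher and 0 to 1 lower at 1 month, and 3 to 4 higher and 1 to 4 lower in the acute model. The difference of 1 month from P10 gave 0 to 11 lower. The difference of acute from 1 month gave 0 to 3 higher and 1 to 4 lower, and that of acute from P10 gave 3 to 12 lower. Controls gave 3 to 4 higher and 5 to 7 lower with age, and acute transcript usage gave 1 to 2 genes. Where a group kept 1 library, it was assumed to vary like the other groups.

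Whether replicate numbers pair the libraries is not stated in the labels. Deviations of same-numbered libraries correlated at -0.00348, 0.278 and 0.242 in the acute model, and differently numbered ones at -0.301 to 0.072. At P10 and 1 month the same-numbered values were 0.000675 and 0.264. With 2 libraries per group, the differently numbered values there are the same with the sign reversed. These values do not settle whether the libraries were paired. With the replicate block, 18 were higher and 1 lower at P10 (Rps27l and Fas added), 5 higher (Bax and Aen added) and 3 lower (Plk3, Trp53inp1 and Sesn1) at 1 month, 1 higher (Fas) and 6 lower (Cdkn1a, Btg2, Plk3, Pmaip1, Trp53inp1 and Gdf15) for 1 month against P10, 3 higher for acute against 1 month (Cdkn1a, Btg2 and Trp53inp1), and 2 genes changed transcript usage in the acute model. TPM keep no depth, so no counting error was computed from them.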
